A study of Sus scrofa with 10 samples.

Results

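Macrophages and their relatives of the myeloid lineage were followed through 35 genes that mark or serve these cells, matched by gene name in a table of 27376 pig genes. Of the 35, 34 had a row under their own symbol. The exception was CYBB, whose row carries the symbol GP91-PHOX in RefSeq, so it was not counted among the 34 and is given apart. The study asked whether spermatogonial germ cells change how testicular cells rebuild tissue after transplantation. GF grafts (n = 4) were grown from pig germ cells together with testicular fibroblasts, and FO grafts (n = 4) from testicular fibroblasts only. The cells of all grafts were injected with high-concentration Matrigel, a basement membrane gel, into the dorsal skin of a mouse that the labels call a SKID mouse, and the tissue was taken 6 months after grafting. The labels do not say which host blood and immune cells such a mouse keeps. Control libraries (n = 2) came from pig testis tissue titled 5D, a code the labels do not explain. The control labels repeat the cell type and growth fields of the GF grafts, so groups were read from the titles.

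Macrophages take up dying cells and debris, sense microbial molecules and shape the tissue around them. In the testis they live in the interstitium beside Leydig cells and on the surface of the seminiferous tubules, and their survival depends on the CSF1 receptor. The genes fall into the complement C1q chains, scavenger and lectin receptors, sensors of bacterial products, signalling adaptors, receptors for growth factors and chemokines, transcription factors, lysosomal and oxidase enzymes, and molecules shared with other leukocytes or used to stimulate T cells.

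PolyA RNA was counted at the 3′ ends of transcripts with QuantSeq. Total counts ranged from 2915534 to 4917325 in GF libraries, from 4033509 to 4887878 in FO libraries and from 5844944 to 7013911 in control libraries. Levels are given as CPM, the count relative to the library total after scaling for library composition, and 3 counts in a single library correspond to 0.452 to 1.03 CPM. Counting intervals and limits cover counting error only, because no molecular identifiers are described. Only pig genes were counted, so mouse macrophages that entered a graft could be missed or partly counted, and which species the reads came from was not tested. Nothing in the labels says that the replicates came from separate animals, so p-values measure the spread between these libraries. FO 1 and GF 3 carried skeletal muscle transcripts, with 11 muscle genes summing to 961 and 304 CPM, while all the rest held 9.01 to 48.7 CPM.

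The summed level of the 34 macrophage and myeloid genes was lowest in GF grafts and highest in testis. It was 149, 138, 150.5 and 148 CPM in GF 1 to 4, 406, 251.5, 246 and 527 CPM in FO 1 to 4, and 1025 and 1091 CPM in control 1 and 2. The 4 GF libraries lay close together, and no 2 groups overlapped. In bulk tissue, fewer cells of a type and less RNA per cell cannot be told apart.

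Between GF and FO grafts, 18 of the 34 genes had enough counts to be tested. By edgeR's quasi-likelihood test, 9 were lower in GF, 1 was higher and 8 did not pass at an adjusted p under 0.05. Of all 13782 genes tested, 30.5% were called, 13% lower and 17.6% higher. The median log2 fold change of the 18 genes was −1.26, against −0.02 over all genes tested. C1QB and FGR entered the test through FO libraries only and had to differ, so the counts describe the list and do not support it. Counting also the genes too low to be tested, every GF library was below every FO library for 14 of the 34 genes and above for 1. The share of all 27376 genes with this pattern was not counted, so the 14 have no background to be read against. For the 18 tested genes that pattern held for 7 lower and 1 higher, where the shares over all genes tested were 18.2% and 17.8%.

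Against control testis, 32 of the 34 genes were tested, and CD80 and TREM2 were too low. In GF grafts 25 fell and 7 did not pass, with a median log2 fold change of −4.11 (−4.12 with genes of 3 counts or fewer in GF set to their counting limit or ratio), against 0.03 over all genes. Over all 15877 genes tested, 25.8% were called, 11.8% lower and 14.0% higher. In FO grafts 12 fell and 20 did not pass, with a median of −2.14 against −0.04 over all genes, where 18.7% were called, 10.6% lower and 8.12% higher. Among the 32 tested genes, every GF library was below both controls for 26 and above for 2, against 25.3% and 21.9% of all genes tested. Every FO library was below both controls for 24 and above for 1, against 31.9% and 26.8%. For both kinds of graft, 0 of the 34 genes were called higher than in testis by edgeR. At an unadjusted p under 0.05 these counts were 1 in GF (CLEC7A) and 0 in FO, and DESeq2 likewise called 1 and 0. In this fit, 4 genes (LYZ, TLR4, CSF2RA and LY86) were tested only through control libraries. Another 10 (CD68, CSF1R, C1QA, C1QB, VSIG4, CD86, SPI1, CX3CR1, FGR and SIGLEC1) were tested only through FO and control libraries. This limits the counts, and the calls of these genes in GF against testis, in the same way. It also limits the calls of the 4 in FO against testis. The comparisons of GF and FO with testis share the same pair of control libraries, so their values are set side by side and not counted as independent.

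**Figure D1:**
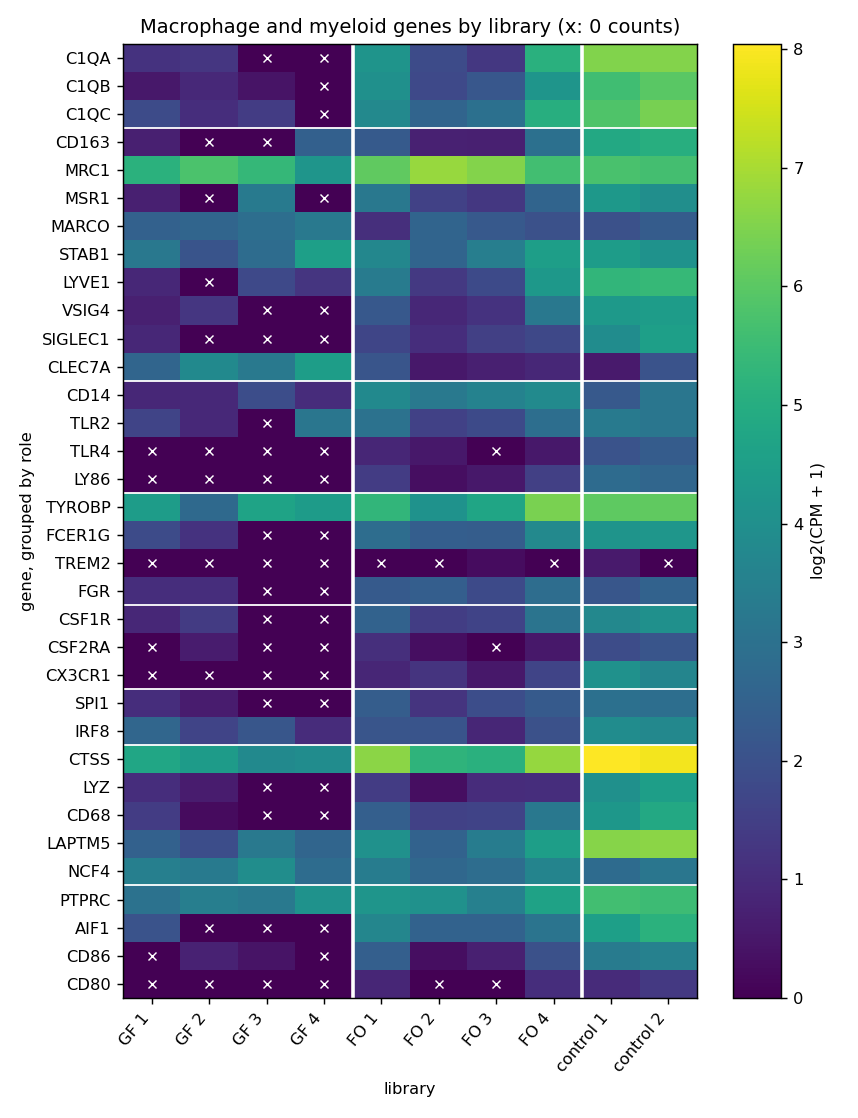
Levels of the 34 macrophage and myeloid genes as log2(CPM + 1), with genes grouped by role in rows and the 4 GF, 4 FO and 2 control libraries in columns. An x marks 0 counts: GF 3 and GF 4 have 18 and 20 such genes, FO libraries 1 to 3, and control libraries 0 and 1.

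Loss of detection was uneven among the grafts. Of the 34 genes, 7, 10, 18 and 20 had no count in GF 1 to 4, against 1, 2, 3 and 1 in FO 1 to 4 and 0 and 1 in control 1 and 2. Detection over all 27376 genes was also lowest in GF 3 and GF 4. Genes with a count numbered 18256, 18112, 15977 and 14680 in GF 1 to 4. They numbered 17143 to 17845 in FO libraries and 19563 and 19281 in control 1 and 2. The part of this general fall in the missing counts of the 34 was not tested. GF 3 and GF 4 had the smallest totals, but drawing every library down to the lowest total left 7, 11, 18 and 20 genes without a count in GF 1 to 4, against 1, 4, 5 and 1 in FO 1 to 4 and 0 and 1 in control 1 and 2. The order of the GF libraries was the same after drawing down. In both GF 3 and GF 4, 16 genes had no count, among them CD68, CSF1R, AIF1, C1QA and FCER1G. Of these 16, 12 were counted in every FO library and 15 in both control libraries. The same pair of GF libraries had the most CLU, a secreted chaperone abundant in Sertoli cells, at 13670, 15660, 39040 and 43860 CPM in GF 1 to 4. The germ cell genes DDX4 (59.3, 101.9, 56.1 and 46.6 CPM) and DAZL (77.9, 57.5, 35.8 and 7.59 CPM) were lowest in that pair. Other germ cell genes were not. PRM1 (86.2, 433, 956 and 146 CPM) and TNP1 (42.6, 278.6, 678.8 and 114.2 CPM) were highest in GF 3 and lowest in GF 1. TEX101 had 45.8, 70.8, 39.6 and 47.6 CPM. The part of these differences in the missing counts was not tested, and these genes were named after their values were seen. Only 11 of the genes were counted in all 10 libraries: MRC1, CD14, TYROBP, PTPRC, CTSS, LAPTM5, MARCO, STAB1, IRF8, NCF4 and CLEC7A.

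**Figure D2:**
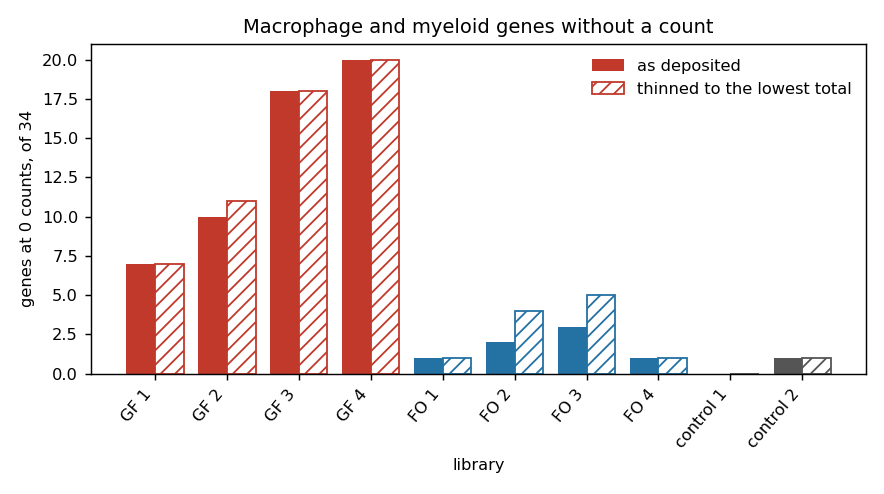
Number of the 34 macrophage and myeloid genes with 0 counts in each library, as deposited (filled bars) and after drawing every library down to the lowest total (hatched bars). GF 3 and GF 4 stand at 18 and 20 in both, and the highest FO value after drawing down is 5.

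The chains of complement C1q were lowest in GF grafts and highest in testis, and among genes with a count in GF, C1QA and C1QB had the largest fitted fall against testis. C1QA, C1QB and C1QC encode the 3 chains of C1q, the recognition molecule of the classical complement pathway, which macrophages make in most tissues. In Sscrofa11.1 they lie side by side on chromosome 6, C1QA at 80586259 to 80589213, C1QC at 80592591 to 80597464 and C1QB at 80601680 to 80606076. C1QB had 0.428, 0.901, 0.344 and 0 CPM in GF 1 to 4, 15.6, 2.39, 3.56 and 17.1 CPM in FO 1 to 4, and 47.0 and 62.9 CPM in control 1 and 2. C1QC had 2.57, 1.08, 1.72 and 0 CPM in GF 1 to 4, 12.8, 5.00, 6.91 and 32.4 CPM in FO 1 to 4, and 55.6 and 83.7 CPM in the controls. Every GF library was below every FO library for both genes, and every FO library was below both controls. C1QA, with 1.28, 1.44, 0 and 0 CPM in GF 1 to 4 against 17.0, 2.61, 1.47 and 33.6 CPM in FO 1 to 4, was too low in the grafts to be tested between them. In testis C1QA stood at 90.1 and 92.6 CPM.

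In GF against FO grafts, C1QB fell by 4.29 ± 0.90 on the log2 scale (log2 fold change ± SE, edgeR adjusted p = 0.00428) and C1QC fell by 3.34 ± 0.81 (edgeR adjusted p = 0.00901). C1QB kept its call under all 14 alternatives that tested it. It was too low to be tested without FO 3, without FO 4 or with counts drawn down to the lowest total. It entered the test through FO libraries only, as FGR did, so neither the call nor the alternatives support the fall. Without GF 2 the ratio of C1QB counts was 32.5-fold lower in GF (95% interval 10.9 to 159.5). C1QC lost its call without FO 4, where it fell by 2.54 (adjusted p = 0.0536). Of the GF libraries only GF 1 passed the filter's cutoff for C1QC, so its call does not support the fall either. In GF against testis the log2 fold changes were −6.76 ± 1.05 for C1QA, −6.77 ± 0.83 for C1QB and −5.61 ± 0.76 for C1QC, all called and all kept under every alternative. Without GF 2, C1QA moved to −7.35 and C1QB to a ratio of 193-fold (65.8 to 938.5). In FO against testis C1QA, C1QB and C1QC fell, with log2 fold changes of −2.74 ± 0.85, −2.51 ± 0.65 and −2.28 ± 0.65 (adjusted p = 0.0378, 0.0161 and 0.0259). All 3 of these calls ended when either control library was left out (adjusted p 0.0765 to 0.244). Those of C1QA and C1QC also ended without FO 1, FO 2 or FO 3 (0.0634 to 0.0843), and without FO 4 both fell further, to −3.73 and −3.09. The C1QA call, kept in 9 of 19 alternatives, also ended with DESeq2 (adjusted p = 0.164). With edgeR it ended without the filter (0.118) and with only the FO and control libraries fitted (0.126). C1QC lost its call in that last fit too (0.0587). As a share of all counts of the 34 genes, the 3 C1q chains took 2.87, 2.48, 1.37 and 0% in GF 1 to 4, 11.2, 3.97, 4.85 and 15.8% in FO 1 to 4 and 18.8 and 21.9% in the controls.

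Scavenger and lectin receptors, by which macrophages bind modified lipoproteins, glycans and dying cells, did not move together. MRC1, the mannose receptor CD206, had 34.2, 53.0, 40.0 and 17.3 CPM in GF 1 to 4, 66.2, 112, 92.2 and 48.0 CPM in FO 1 to 4 and 51.8 and 48.6 CPM in the controls. GF and FO grafts overlapped only through GF 2 and FO 4, and both controls lay in that overlap. MRC1 was lower in GF than in FO (log2 fold change −1.13 ± 0.35, adjusted p = 0.0304), a call that ended without GF 4, FO 1, FO 2 or FO 3 (adjusted p 0.0536 to 0.107). Against testis it did not pass in GF (−0.47 ± 0.40) or in FO (0.66 ± 0.41). MRC1 took 23.0, 38.4, 26.5 and 11.7% of the counts of the 34 genes in GF 1 to 4 and 16.3, 44.4, 37.4 and 9.12% in FO 1 to 4, against 5.05 and 4.45% in testis.

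LYVE1, a hyaluronan receptor of perivascular macrophages and of lymphatic vessels, was 1.16 ± 1.01 CPM in GF grafts, 7.91 ± 7.78 CPM in FO grafts (SD, n = 4 each) and 39.6 ± 1.35 CPM in testis (SD, n = 2). It passed by a narrow margin in GF against FO (−2.84 ± 1.01, adjusted p = 0.0497), and the groups overlapped. That call ended without GF 1, GF 2, GF 4, FO 1, FO 3 or FO 4 (adjusted p 0.0549 to 0.216). The fold moved to −3.52 without GF 3 and to −1.95 without FO 4. Of 7 lymphatic endothelial genes, 4 were tested between the grafts. PDPN (−2.09) and FLT4 (−2.58) were called lower in GF, while PROX1 (−0.91, adjusted p = 0.0803) and RELN (1.03, adjusted p = 0.361) did not pass. Their part in the LYVE1 difference was not tested. Against testis LYVE1 fell by 5.22 ± 0.96 in GF (adjusted p = 0.00184, and −5.91 without GF 3). It did not pass in FO (−2.32 ± 0.82, adjusted p = 0.0652), and passed without GF 2, GF 3, GF 4 or FO 4 (0.0295 to 0.0487).

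CD163, the haemoglobin scavenger receptor, had 0.642, 0, 0 and 4.49 CPM in GF 1 to 4, 3.90, 0.651, 0.628 and 6.77 CPM in FO 1 to 4 and 28.1 and 32.3 CPM in testis. The grafts overlapped and were too low to be compared, and all lay below testis. CD163 fell against testis in GF (−4.69 ± 1.14, adjusted p = 0.00932) and in FO (−3.33 ± 1.04, adjusted p = 0.0398). Without GF 4, 3 counts remained in GF, a ratio 132.5-fold below testis (45.01 to 645.5), and without control 1 or control 2 the GF call ended (adjusted p = 0.0518 and 0.0704). The FO call ended without FO 1, FO 2, FO 3 or either control library (0.0884 to 0.211), and without FO 4 the fold was −4.17.

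VSIG4, a complement receptor of resident macrophages, and SIGLEC1, the sialic acid receptor sialoadhesin, had few counts in GF grafts. VSIG4 had 3, 8, 0 and 0 counts and SIGLEC1 4, 0, 0 and 0 counts in GF 1 to 4, against 13, 4, 6 and 39 counts and 8, 5, 9 and 11 counts in FO 1 to 4. In testis they had 117 and 138 counts and 86 and 149 counts. Both fell in GF against testis, VSIG4 with −4.96 ± 0.98 and SIGLEC1 with −6.09 ± 0.93 (adjusted p = 0.00285 and 0.000590). VSIG4 was 70.0-fold lower without GF 2 (23.7 to 341.9), and SIGLEC1, with no count left without GF 1, was at least 70.0-fold lower (3 counts over the group taken as the limit). SIGLEC1 also fell in FO (−3.27 ± 0.77, adjusted p = 0.0103), a call that ended without control 1 or control 2 (0.0595 and 0.181). VSIG4 did not pass in FO (−2.51 ± 0.86, adjusted p = 0.0579), and it passed without GF 2, GF 3, GF 4 or FO 4 (0.0274 to 0.0469).

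MSR1, the class A scavenger receptor, depended on a single library. It had 0.642, 0, 8.95 and 0 CPM in GF 1 to 4, 8.35, 1.95, 1.47 and 5.08 CPM in FO 1 to 4 and 18.8 and 14.8 CPM in testis. It did not pass in GF against testis (−2.90 ± 1.20, adjusted p = 0.0902) or in FO (−2.00 ± 1.15). Without GF 3 it passed (adjusted p = 0.00152), with 3 counts in GF against 212 in testis and a ratio of 73.0-fold (24.6 to 356.5). STAB1, which clears modified lipoproteins and is also made by sinusoidal endothelium, was 10.1 ± 8.51 CPM in GF, 12.2 ± 6.96 CPM in FO and 18.4 ± 3.24 CPM in testis and passed no test (adjusted p 0.339 to 0.751). Without GF 4, where it was highest at 22.4 CPM, STAB1 passed as lower in GF than in testis (−1.64, adjusted p = 0.0455). MARCO, another scavenger receptor, was 6.28 ± 1.75 CPM in GF, 3.21 ± 1.63 CPM in FO and 3.52 ± 0.79 CPM in testis and did not pass in any comparison (0.216 to 0.925), although every GF library was above both controls. The STAB1 and MARCO genes overlap other annotated genes, and the use of strand in counting is not given, so their counts are uncertain.

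CLEC7A, the beta-glucan receptor Dectin-1, was the 1 gene of the list called higher in GF than in FO; MARCO, NCF4 and IRF8 also had higher means in GF but did not pass. It had 5.13, 13.2, 8.61 and 21.4 CPM in GF 1 to 4, 3.34, 0.434, 0.628 and 0.846 CPM in FO 1 to 4 and 0.493 and 3.17 CPM in the controls. Every GF library was above every FO and every control library. CLEC7A was higher in GF than in FO by 3.23 ± 0.72 on the log2 scale (adjusted p = 0.00608), under all 17 alternatives, and by 4.20 without FO 1. Of the FO libraries only FO 1 lay above the filter's cutoff of 2.225 CPM. CLEC7A was thus tested because GF was high, so neither the call nor the alternatives support the rise. Against testis it was 2.69 ± 0.97 higher in GF but did not pass (adjusted p = 0.0559). DESeq2 called it (0.0123), as did edgeR without GF 1 or without FO 1 (0.0364 and 0.0436). In FO against testis CLEC7A gave −0.54 ± 0.92 (adjusted p = 0.741). The share of the 34 genes' counts that fell to CLEC7A was 3.44, 9.54, 5.72 and 14.5% in GF 1 to 4, against 0.161 to 0.823% in FO and 0.0481 and 0.290% in testis.

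**Figure D3:**
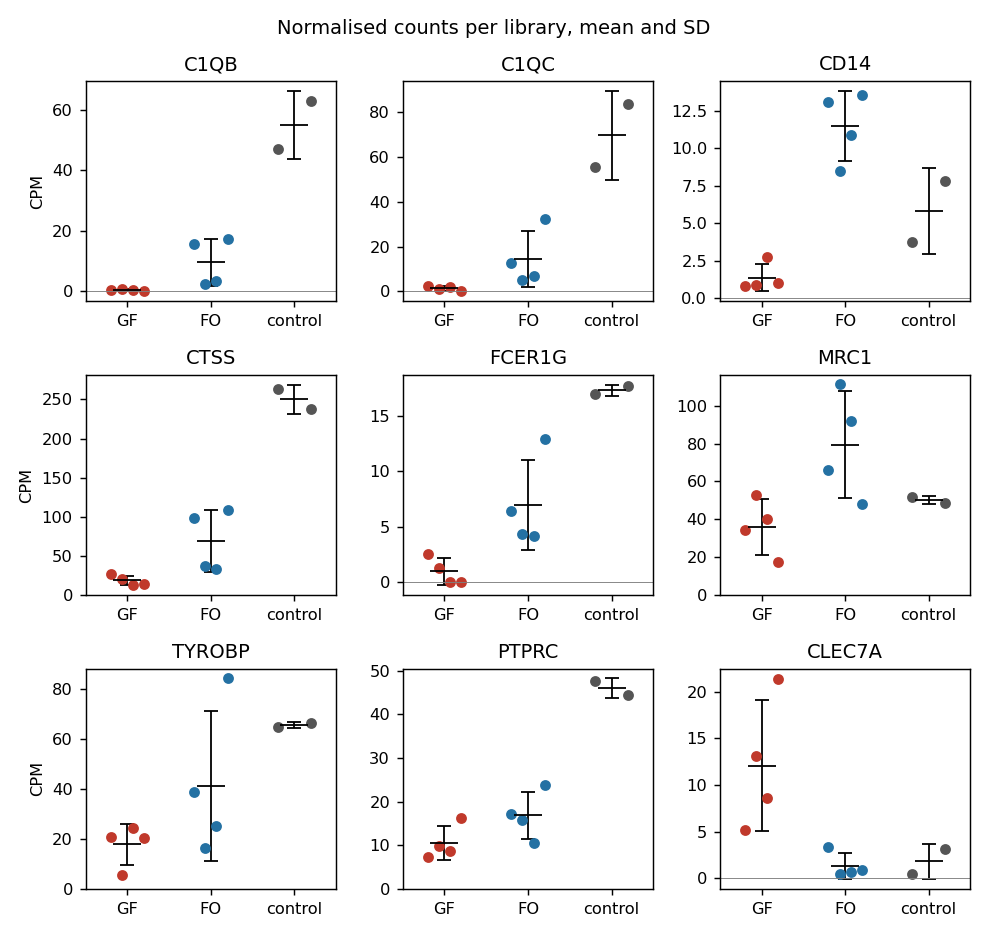
CPM of 9 macrophage and myeloid genes in every library, with the GF, FO and control groups from left to right, the mean as a horizontal line and the SD as error bars (n = 4, 4 and 2). GF points lie below all FO points for C1QB, C1QC, CD14, CTSS and FCER1G and above them for CLEC7A; MRC1, TYROBP and PTPRC overlap between GF and FO.

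Among the sensors of bacterial products, CD14 was called lower in GF than in FO under every alternative, but it was tested because FO was high. CD14, the co-receptor that hands lipopolysaccharide to TLR4, had 0.856, 0.901, 2.76 and 1.04 CPM in GF 1 to 4, 13.1, 8.47, 10.9 and 13.5 CPM in FO 1 to 4 and 3.78 and 7.84 CPM in the controls. FO grafts were above testis in every library and GF grafts below it. In GF against FO it fell by 3.08 ± 0.55 (adjusted p = 0.00188, highest adjusted p over 17 alternatives 0.0113). Of the GF libraries only GF 3 lay above the filter's cutoff of 2.225 CPM, so neither the call nor the alternatives support the fall. Against testis CD14 fell by 2.11 ± 0.61 in GF (adjusted p = 0.0214), a call that ended without control 2, where the fold was −1.51. It also ended with only the GF and control libraries fitted (0.152) and with counts drawn down to the lowest total (0.0554). In FO it was 0.98 ± 0.60 higher and did not pass (adjusted p = 0.289).

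TLR4 and LY86, which encodes MD-1, a partner of the TLR4-like receptor RP105, had no count in any GF library. TLR4 had 3, 2, 0 and 2 counts in FO 1 to 4 and 19 and 27 in the controls, and LY86 had 6, 1, 2 and 9 counts in FO and 37 and 35 in the controls. Against testis, TLR4 was at least 19.3-fold lower and LY86 at least 30.3-fold lower in GF, with 3 counts over the GF group as the limit, and both were called (adjusted p = 0.00857 and 0.00398). Without GF 2 these limits were 12.6-fold and 19.8-fold, and the TLR4 call ended without control 1 or control 2 (0.0540 and 0.0762). Against FO the limits were only 2.11-fold and 5.43-fold, with no test. In FO against testis neither passed (TLR4 −3.06 ± 1.12, LY86 −2.42 ± 0.97), and TLR4 passed without GF 3 or GF 4 (0.0461 and 0.0383). TLR2, which senses bacterial lipoproteins, overlapped between all groups of grafts, with 2.14, 0.901, 0 and 7.94 CPM in GF 1 to 4 and 7.24, 1.95, 2.51 and 6.56 CPM in FO 1 to 4, against 8.72 and 7.84 CPM in testis. It passed no test (adjusted p 0.239 to 0.592), but without GF 4 it was lower in GF than in testis (−2.90, adjusted p = 0.0238).

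Of the signalling adaptors, TYROBP, or DAP12, and FCER1G, the common gamma chain of Fc receptors, carry the activating motifs for many myeloid receptors. TYROBP had 20.8, 5.76, 24.45 and 20.4 CPM in GF 1 to 4, 38.7, 16.3, 25.3 and 84.2 CPM in FO 1 to 4 and 64.6 and 66.3 CPM in testis. FCER1G had 2.57, 1.26, 0 and 0 CPM in GF 1 to 4, 6.40, 4.34, 4.19 and 12.9 CPM in FO 1 to 4 and 16.9 and 17.6 CPM in testis. GF 3 and GF 4 thus had TYROBP at a level like that of GF 1 while FCER1G had no count. Between the grafts TYROBP did not pass (−1.21 ± 0.53, adjusted p = 0.105). FCER1G was lower in GF (−2.69 ± 0.89, adjusted p = 0.0376), which ended without GF 2, GF 3 or any 1 FO library (0.0577 to 0.140), and the fold was −3.66 without GF 1. Only GF 1 of the GF libraries lay above the filter's cutoff. FCER1G was thus tested because FO was high, and the call does not support a fall.

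Against testis, TYROBP fell by 1.89 ± 0.57 in GF (adjusted p = 0.0264, ended without control 1 or control 2 at 0.111 and 0.131), and FCER1G fell by 3.98 ± 0.86 (adjusted p = 0.00502, and −4.94 without GF 1). Neither passed in FO (TYROBP −0.67 ± 0.57, FCER1G −1.31 ± 0.79). FGR, a Src family kinase of myeloid cells, had 5, 6, 0 and 0 counts in GF 1 to 4 and 14, 20, 12 and 30 in FO 1 to 4. At 0.538 ± 0.621 CPM it was lower in GF than in FO, with 4.28 ± 1.58 CPM (−2.74 ± 0.84, adjusted p = 0.0283), a call that ended without any 1 of the FO libraries (0.0516 to 0.0968). Testis had 4.14 ± 0.97 CPM, so that FGR was called lower in GF (−2.71 ± 0.94, adjusted p = 0.0474) and gave 0.05 ± 0.89 in FO. The GF call ended without GF 3, any FO library or either control library (0.0508 to 0.251). TREM2, a lipid receptor that signals through TYROBP, had 1 count in all grafts together and 3 in testis and could not be assessed.

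Receptors for growth factors and chemokines were among the genes closest to loss. CSF1R, the receptor on which most tissue macrophages depend, had 4, 9, 0 and 0 counts in GF 1 to 4, 17, 8, 10 and 36 in FO 1 to 4 and 76 and 103 in the controls. As CPM this was 0.619 ± 0.780 in GF, 4.04 ± 2.73 in FO and 14.0 ± 2.14 in testis, with no overlap between any pair of groups. CSF1R fell by 4.24 ± 0.91 in GF against testis (adjusted p = 0.00482). Without control 2 that call ended (0.0524), and without GF 2 the fold was −5.23. In FO it did not pass (−1.79 ± 0.83, adjusted p = 0.155). CX3CR1, the fractalkine receptor, had no count in any GF library, 3, 6, 2 and 10 counts in FO 1 to 4 and 96 and 77 in testis.

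CX3CR1 was therefore at least 72.7-fold lower in GF than in testis (adjusted p = 0.000520; at least 47.5-fold without GF 2) and at least 6.34-fold lower than in FO, with no test. In FO it fell by 3.51 ± 0.76 against testis (adjusted p = 0.00977), ended without control 1 or control 2 (0.132 and 0.0819). CSF2RA, the alpha chain of the GM-CSF receptor, had 3 counts in GF, all in GF 2, 7 in FO and 38 in testis. Its ratio to testis was 15.97-fold lower in GF (5.07 to 80.9; adjusted p = 0.0403), and without GF 2 at least 10.4-fold. The call ended without GF 1, GF 3, FO 2, FO 4 or either control library (0.0522 to 0.223). Against FO the ratio was 2.11-fold lower, with an interval of 0.482 to 12.7 that spans no difference.

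Of the transcription factors, SPI1, which encodes PU.1, the master regulator of myeloid fate, had 5, 3, 0 and 0 counts in GF 1 to 4, 15, 6, 13 and 18 in FO 1 to 4 and 42 and 43 in testis. Every GF library was below every FO library and every FO library below testis. SPI1 fell in GF against testis (−3.79 ± 0.94, adjusted p = 0.0104). Without GF 1 the ratio was 25.3-fold (8.37 to 125.1), and the call ended without control 1 or control 2 (0.0733 and 0.0744). It did not pass in FO (−1.16 ± 0.85). IRF8, which directs monocyte and dendritic cell development, behaved differently, with 3.00 ± 1.85 CPM in GF, 2.60 ± 1.19 CPM in FO and 13.3 ± 1.15 CPM in testis. The grafts overlapped (0.22 ± 0.67, adjusted p = 0.824), and IRF8 fell against testis in GF (−2.13 ± 0.67, adjusted p = 0.0318) and in FO (−2.35 ± 0.67, adjusted p = 0.0251). The GF call ended without GF 2, control 1 or control 2 (0.0591 to 0.185), and the FO call without any 1 FO library or either control library (0.0520 to 0.175).

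Of the genes of the lysosome and the oxidase, CTSS, the protease cathepsin S that trims the invariant chain for antigen presentation, had 26.1, 20.5, 13.1 and 14.2 CPM in GF 1 to 4, 98.5, 36.3, 33.3 and 108.5 CPM in FO 1 to 4 and 263 and 237 CPM in testis. The 3 groups did not overlap. CTSS fell in GF against FO by 1.89 ± 0.42 (adjusted p = 0.00604), a call that no single library ended but that was lost without FO 1 and GF 3 together (0.0637) and without GF 3 and GF 4 together (0.0710). Against testis it fell by 3.74 ± 0.45 in GF (adjusted p = 0.000126) and fell by 1.86 ± 0.44 in FO (adjusted p = 0.00981, ended without control 1 or control 2 at 0.0780 and 0.0634). LAPTM5, a lysosomal membrane protein of blood cells, was 5.30 ± 2.46 CPM in GF, 13.02 ± 7.52 CPM in FO and 97.8 ± 3.45 CPM in testis. It fell against testis (−4.24 ± 0.52 in GF and −2.91 ± 0.49 in FO, adjusted p = 0.000134 and 0.00118), and both calls held under every alternative, while GF against FO did not pass (−1.31 ± 0.55, adjusted p = 0.0906).

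CD68, the lysosomal glycoprotein used to stain macrophages, had 8, 1, 0 and 0 counts in GF 1 to 4, 16, 9, 10 and 39 in FO 1 to 4 and 110 and 184 in testis, with no overlap between groups. It fell by 5.35 ± 0.94 in GF against testis (adjusted p = 0.00139); without GF 1, a single count remained, a ratio of 262.5-fold (46.8 to 10400). In FO it fell by 2.45 ± 0.80 (adjusted p = 0.0482). The call ended without FO 1, FO 2 or FO 3 (0.109 to 0.125), without FO 1 and GF 3 together (0.0684) and without either control library. It also ended with RLE scaling (0.0513), total counts alone (0.0507), the replicate block (0.0965) and counts drawn down to the lowest total (0.106). LYZ, which encodes lysozyme, had 0.402 ± 0.513 CPM in GF, 0.998 ± 0.596 CPM in FO and 18.7 ± 4.75 CPM in testis. It fell against testis in GF (−5.25 ± 0.88, adjusted p = 0.00107; 71.1-fold without GF 1, 24.1 to 347.4) and in FO (−4.21 ± 0.82, adjusted p = 0.00340, ended without control 2 at 0.0778). NCF4, a cytosolic subunit of the phagocyte oxidase, was level, with 9.93 ± 3.43 CPM in GF, 8.15 ± 2.79 CPM in FO and 7.04 ± 1.35 CPM in testis, and it passed no test (adjusted p 0.510 to 0.824). NCF4 overlaps PVALB in the annotation, so its counts are uncertain. GP91-PHOX, the membrane subunit of the same oxidase, had 11, 6, 0 and 0 counts in GF 1 to 4, 13, 3, 9 and 24 in FO 1 to 4 and 129 and 194 in testis. It was called lower than in testis in GF (−4.67 ± 0.92, adjusted p = 0.00279) and in FO (−3.16 ± 0.85, adjusted p = 0.0189).

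Of the genes shared more widely, PTPRC, which encodes CD45 on all leukocytes, had 7.27, 9.91, 8.61 and 16.2 CPM in GF 1 to 4, 17.3, 15.9, 10.5 and 23.7 CPM in FO 1 to 4 and 47.7 and 44.5 CPM in testis. GF and FO overlapped and did not pass (−0.68 ± 0.39, adjusted p = 0.209), and all grafts were below testis. PTPRC fell against testis in GF (−2.14 ± 0.39, adjusted p = 0.00168) and in FO (−1.45 ± 0.38, adjusted p = 0.0176), the FO call ending without FO 3 (0.0514), control 1 (0.142) or control 2 (0.121). AIF1, or IBA1, an actin-binding protein of macrophages, had 15 counts in GF 1 and none in GF 2, GF 3 and GF 4, against 43, 22, 23 and 36 in FO 1 to 4 and 135 and 227 in testis. It was called lower in GF than in FO (−3.02 ± 1.06, adjusted p = 0.0485). Only GF 1 of the GF libraries lay above the filter's cutoff. AIF1 was thus tested because FO was high, and the call does not support a fall. Without GF 1 it was at least 26.5-fold lower (adjusted p = 0.00148), and leaving out any other single graft ended the call (0.0712 to 0.15). AIF1 overlaps LST1 and NCR3 in the annotation, which makes its counts uncertain. Against testis it fell by 4.95 ± 1.00 in GF (adjusted p = 0.00336; at least 108-fold without GF 1) and did not pass in FO (−1.96 ± 0.87, adjusted p = 0.142; 0.0224 without GF 1).

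CD80 and CD86 are the ligands through which antigen-presenting cells costimulate T cells. CD86 had 0, 4, 1 and 0 counts in GF 1 to 4, 16, 1, 3 and 14 in FO 1 to 4 and 56 and 70 in testis, and the grafts overlapped. It fell by 4.95 ± 1.14 in GF against testis (adjusted p = 0.00690), which ended without control 2 (0.0604), and without GF 2 the ratio was 104-fold (18.3 to 4133). In FO it did not pass (−2.27 ± 0.98, adjusted p = 0.128). CD80 had no count in GF, 8 in FO and 16 in testis, at least 6.72-fold lower in GF than in testis by the limit that 3 counts allow, and its gene overlaps TIMMDC1.

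**Figure D4:**
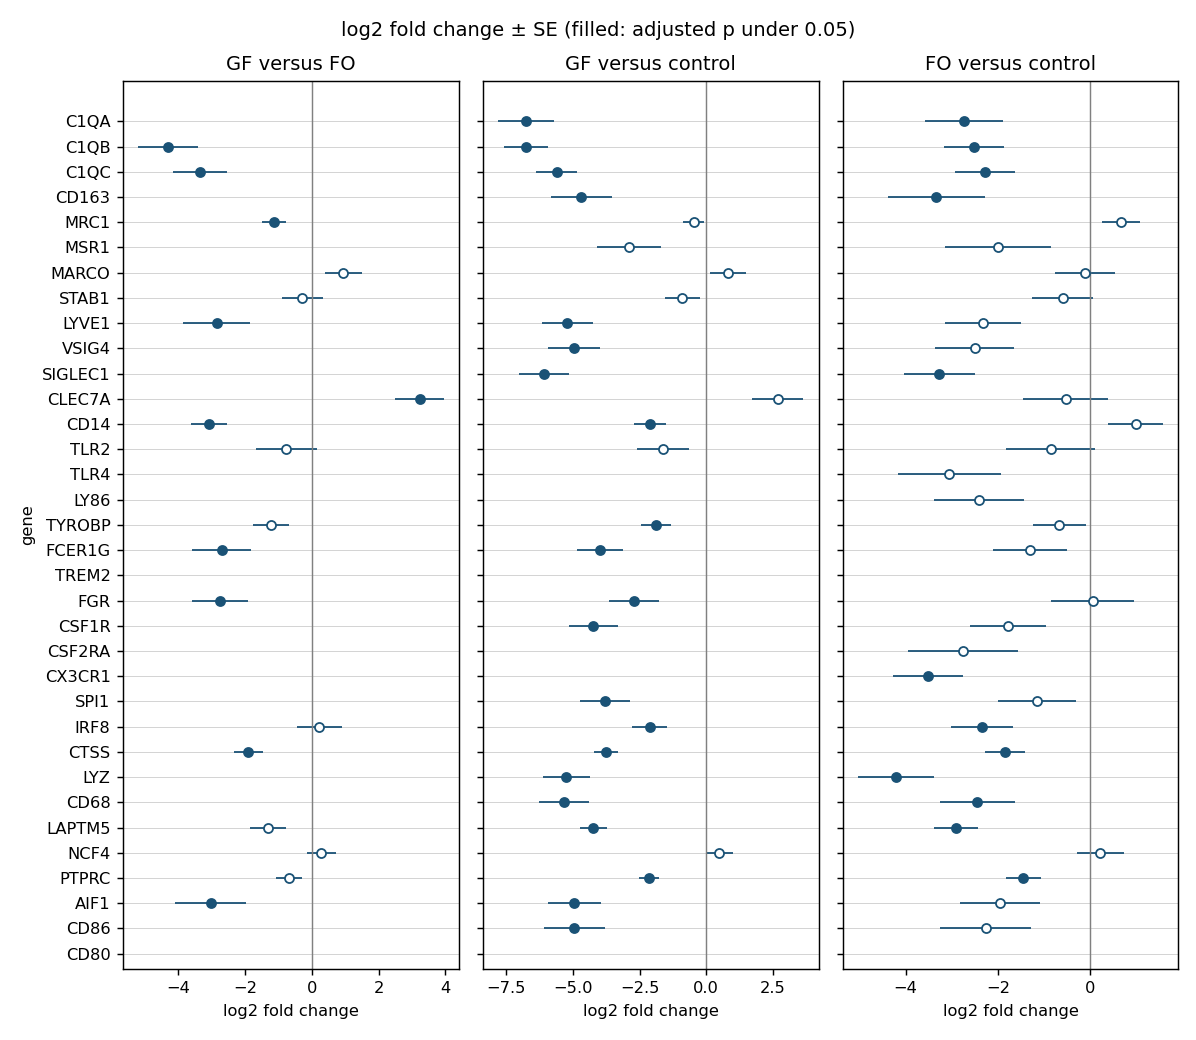
Log2 fold change (points) and SE (bars) of each tested macrophage and myeloid gene in GF versus FO, GF versus control and FO versus control, filled where the adjusted p was under 0.05. Genes not tested, and genes with 3 counts or fewer in a group, have no point. CLEC7A is the filled point on the right in GF versus FO, at 3.23, and C1QB lies farthest left there, at −4.29.

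Across the 34 genes, mean CPM was ordered with testis above FO and FO above GF for 27. The exceptions were IRF8, in which GF lay above FO, MRC1, CD14 and FGR, highest in FO and lowest in GF, MARCO and CLEC7A, highest in GF and lowest in FO, and NCF4, highest in GF and lowest in testis. These are orders of means, and GF and FO did not differ beyond their spread for IRF8, MARCO and NCF4. Of the 27, 16 were not tested between the grafts, and TYROBP, PTPRC, LAPTM5, STAB1 and TLR2 did not pass. Among the 27, GF was called below FO only for AIF1, C1QB, C1QC, FCER1G, CTSS and LYVE1. The share of all genes with this order was not counted.

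FO grafts were not alike. FO 4 was the highest FO library for 21 of the 34 genes, FO 1 for 10, FO 2 for 2 and FO 3 for 1. FO 4 also had the most endothelial transcripts among the grafts, with 12 genes summing to 321 CPM against 130.5 to 161 CPM in the other FO libraries and 58.2 to 101 CPM in GF, and 94 counts of the haemoglobin gene HBB against 27, 8 and 13 in FO 1 to 3. Whether blood or vessels bear on the macrophage genes of FO 4 was not tested. MRC1 ran opposite to the C1q genes within the FO group, highest in FO 2 and FO 3 and lowest in FO 4.

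Further myeloid genes did not follow the 34 uniformly. Of 28 others in the table, 11 were tested between the grafts. In GF, 4 were higher, namely the Fc receptor FCGR1A (4.19 ± 0.88, adjusted p = 0.00452), CD4, which pig macrophages and T cells can carry (3.09 ± 0.69, adjusted p = 0.00578), and the efferocytosis receptors MERTK (1.00 ± 0.30, adjusted p = 0.0262) and AXL (0.88 ± 0.24, adjusted p = 0.0163). MERTK, AXL and some genes of the lists that follow were named after their values were seen. The Fc receptor FCGR3A (−3.83 ± 0.82, adjusted p = 0.00501) and the folate receptor FOLR2 (−2.13 ± 0.40, adjusted p = 0.00232) were lower. CD4 had 8.98, 9.01, 8.61 and 7.59 CPM in GF 1 to 4, against 0, 1.09, 1.05 and 1.69 CPM in FO 1 to 4 and 1.48 and 1.96 CPM in testis. FCGR1A had 3.42, 7.92, 18.6 and 5.18 CPM in GF 1 to 4, against 0.557, 0.217, 0 and 1.06 CPM in FO 1 to 4 and 13.3 and 12.8 CPM in testis. Both genes, like CLEC7A, were higher in every GF than in every FO library. Every FO library lay under the filter's cutoff of 2.225 CPM for CD4 and FCGR1A. They were thus tested through GF libraries only and had to come out higher, so their calls do not support a rise. Against testis, 24 were tested. The receptor MERTK was higher in GF, where 6 genes were lower, and in FO, FOLR2 was higher and ITGAM, FCGR1A, CD74, F13A1 and SLC11A1 were lower.

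Signalling molecules below these receptors mostly did not pass between the grafts. Of 10 tested, 1 passed, the kinase LYN (−1.18 ± 0.40, adjusted p = 0.0424), with NFKB1 (0.88), HCLS1 (−1.15) and PTPN6 (1.15) next in order. Against testis 11 of 15 were lower in GF, where 11.8% of all genes tested were. In FO, VAV1, PTPN6, RAC2 and CYBA were lower, where 10.6% of all genes tested were. The kinase SYK was higher in both (2.39 ± 0.42 in GF and 1.82 ± 0.41 in FO, adjusted p = 0.00150 and 0.00808). Among growth factors and attractants for myeloid cells, 10 were tested between the grafts. IL34, the other ligand of CSF1R, was lower in GF (−2.28 ± 0.43, adjusted p = 0.00237) and GAS6, a ligand of MERTK and AXL, was higher (0.98 ± 0.22, adjusted p = 0.00613). CSF1 itself did not pass (−1.24 ± 0.49, adjusted p = 0.0739), nor did MIF (0.93 ± 0.33, adjusted p = 0.0526). Of 12 tested against testis, the attractants CCL2 and CXCL12 and the lipid carrier APOE were lower in both kinds of graft, IL34 and CCL8 were lower and GAS6 higher in GF.

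IL34 had 6.84, 5.76, 11.7 and 2.07 CPM in GF 1 to 4, against 34.8, 36.0, 29.7 and 27.9 CPM in FO 1 to 4 and 23.2 and 22.2 CPM in testis. GF libraries were all below the rest. Lysosome and efferocytosis genes, which most cell types use, were tested for 23 of 24 between the grafts, and 11 were lower in GF and 2, LAMP1 and HEXA, higher. The lowest p-values were those of NPC2 (−2.33), CD9 (−2.27), CTSB (−1.12) and GLB1 (−1.59), all lower. Against testis 11 of 24 were lower in GF and NPC2 was higher, and in FO, LAMP1, HEXA, LIPA and ACP5 were lower and NPC2 and CD9 higher.

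Markers of other cells moved in part with the macrophage genes. The 12 pan-leukocyte genes summed to 32.4 to 41.3 CPM in GF, 48.2 to 71.9 CPM in FO and 146 to 168 CPM in testis. Of 7 tested between the grafts, 1 passed, the tetraspanin CD37, which was higher in GF (4.19 ± 0.78, adjusted p = 0.00227), while CORO1A (−1.68), ARHGDIB (−1.43) and CYTIP (−1.26) did not. CD37 lay under the filter's cutoff in every FO library, so it was tested through GF only and had to come out higher. The 10 neutrophil genes summed to 2.41 to 8.13 CPM in GF, 27.9 to 55.8 CPM in FO and 24.7 to 34.7 CPM in testis. Both genes tested between the grafts, LTF (−3.40) and S100A8 (−3.38), were lower in GF. Within GF, only GF 2 for LTF and GF 1 for S100A8 passed the filter's cutoff, so both were tested because FO was high. How far neutrophils contribute to genes such as FCER1G, FGR and CD14, which they also express, was not tested.

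T and NK cell genes summed to 6.42 to 37.5 CPM in GF, 5.86 to 8.67 CPM in FO and 36.8 to 40.0 CPM in testis, and the T cell receptor genes CD3E and CD3G had no count in any graft, and CD3D none in any library. Of 2 tested between the grafts, CD247 was higher (3.57 ± 0.71, adjusted p = 0.00336) and NKG7 lower (−2.53 ± 0.78, adjusted p = 0.0279) in GF. CD247 lay under the filter's cutoff in every FO library, so it too had to come out higher. NKG7 passed the cutoff in GF only through GF 2, so it was tested because FO was high. B and plasma cell genes summed to 5.40 to 20.02 CPM in GF, 14.0 to 17.8 CPM in FO and 15.7 to 17.6 CPM in testis, with JCHAIN (−0.30) and PAX5 (0.40) not passing between the grafts. Mast cell genes summed to 1.98 to 6.21 CPM in GF, 2.78 to 9.10 CPM in FO and 21.1 to 26.4 CPM in testis, with GATA2 (0.51) not passing between the grafts.

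Platelet and red cell genes summed to 9.84 to 15.2 CPM in GF, 12.5 to 38.7 CPM in FO and 3205 to 4096 CPM in testis. Neither AHSP (1.02) nor ITGA2B (0.93) passed between the grafts. Of the 12 endothelial genes, 10 were tested between the grafts and 1 passed, EMCN (−3.17 ± 0.48, adjusted p = 0.000775), which was lower in GF, while KDR (−1.27), ROBO4 (−2.31) and CDH5 (−1.72) did not. Lymphatic genes summed to 45.5 to 67.0 CPM in GF, 126.5 to 206 CPM in FO and 78.4 to 80.1 CPM in testis.

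Fibroblast genes were lower in GF too, with sums of 1689 to 2813 CPM in GF, 3902 to 6073 CPM in FO and 4617 to 4698 CPM in testis. Of 12 tested between the grafts, 5 were lower in GF, namely COL1A2 (−1.55), DCN (−2.06), COL3A1 (−1.66), PDGFRA (−1.25) and COL1A1 (−0.93), and LUM was higher (2.25). Of 3 adipocyte genes tested between the grafts, LEP was higher in GF, at least 99.0-fold by counts because FO had none. The 2 muscle genes tested between the grafts, ACTA1 (−1.63) and TTN (−0.57), did not pass. Of the 12 testis cell genes, 8 were higher in GF than in FO, led by DDX4 (5.78), TEX101 (6.44), TNP1 (10.08) and PRM1 (9.24), and HSD3B1 was lower (−1.21). Germ cell transcripts were thus more abundant in GF grafts, and their part in the lower CPM of macrophage genes was not tested. LEP, DDX4, TEX101 and TNP1 lay under the filter's cutoff in every FO library, so in their tests they had to come out higher. PRM1 passed the cutoff in FO only through FO 1, so it was tested because GF was high.

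**Figure D5:**
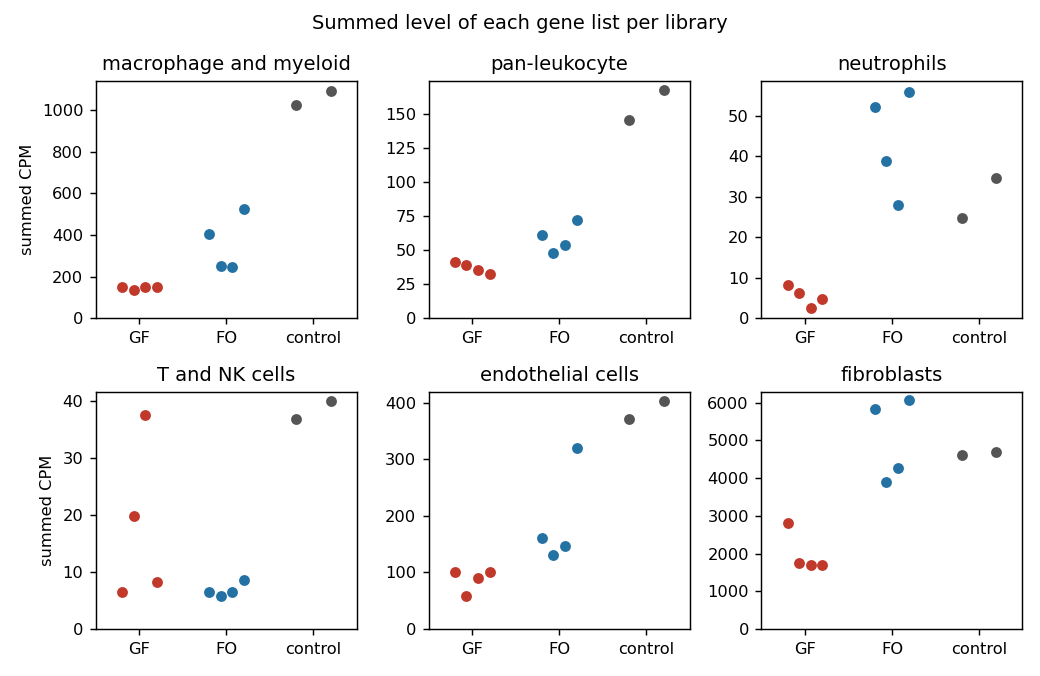
Summed CPM of 6 gene lists in every library, with GF, FO and control groups from left to right and a separate axis for each list. The macrophage and myeloid, pan-leukocyte, neutrophil, endothelial and fibroblast genes are lower in every GF than in every FO library, and the T and NK cell genes are not.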

How the data were processed

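PolyA RNA of 10 pig libraries was extracted with Trizol and prepared with the QuantSeq 3′ kit, per the labels' protocols. The authors deposited 27376 rows of whole-number raw counts, a row for each gene name. Sscrofa11.1 and DESeq2 1.42.0 appear in the submitters' processing notes, without a stated role. Aligner, counter and strandedness were not given in the sources used here, and overlapping genes therefore have uncertain counts. Each column was assigned by the group letter and number of a title, with F read as FO. RefSeq's table of Sscrofa11.1, which gave positions, holds 26836 of the row names.

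Genes were filtered with filterByExpr of edgeR 4.0.16 (R 4.3.3; minimum count 10), scaled with TMM factors and tested with its quasi-likelihood F test (robust). Adjusted p-values are Benjamini-Hochberg values over all genes tested, and genes under 0.05 were called. GF versus FO used the 8 grafts, and both comparisons with testis were fitted on all 10 libraries, since control has 2. SE is the absolute log2 fold change divided by the square root of F. CPM are TMM-scaled over the 10 libraries. For genes with no count in a group, a bound was taken from 3 counts over the group, and for 1 to 3 counts the ratio carries an exact 95% interval. No library pair was identical. Beside the 34 genes, 16 lists of other cell types and pathways were counted; the genes and lists were chosen with earlier results of these data known. All 34 genes are named, and of each other list up to 4 genes with the lowest p in GF versus FO. Alternatives were DESeq2 1.42.0, RLE or total-count scaling, no filter, a replicate block, a different set of fitted libraries, each library left out, both libraries with muscle transcripts left out, both smallest libraries left out and, chosen after seeing the data, counts drawn down to the lowest total. They were run for the 34 genes only. The tests were checked on simulated data.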

Additional observations from a re-analysis of the deposited data

Results flagged for a closer look

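In 10 of 63 groups of 4 graft libraries, a single library lay far from the other 3 of its group for 1 of the macrophage and myeloid genes, 7 in GF and 3 in FO. Chance flags about 1 in 20 groups of continuous values, but that rate does not hold for counts near 0: where 3 libraries have no count, as for AIF1, SIGLEC1, CSF2RA and TREM2, any count in the other meets the criterion. In GF 1, CD68 was 1.71 CPM against 0 to 0.18 in the other GF libraries, AIF1 was 3.21 CPM and SIGLEC1 was 0.856 CPM, both at 0 in the others. In GF 2, CSF2RA was 0.540 CPM, from 3 counts, and at 0 in the others. In GF 3, CD14 was 2.76 CPM against 0.856 to 1.04 and MSR1 was 8.95 CPM against 0 to 0.642. In GF 4, CD163 was 4.49 CPM against 0 to 0.642. In FO 1, CLEC7A was 3.34 CPM against 0.434 to 0.846 in the other FO libraries. In FO 3, IRF8 was 0.838 CPM against 2.96 to 3.34, and TREM2 was 0.209 CPM, a single count, with none in the others.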

How the results depend on the processing

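No fold change of the 34 genes turned its direction while called. In GF versus FO, 9 genes were called lower by default; the count was 5 with total counts alone, 18 with all 10 libraries in the fit, 2 without FO 1 and GF 3, 4 with counts drawn down to the lowest total, and 3 (without FO 4) to 10 with single libraries left out, while 1 gene, CLEC7A, stayed higher throughout. In GF versus control, 25 were lower, and 15 (without control 2) to 27 with single libraries left out. The count higher was 0, and 1 (CLEC7A) with DESeq2, total counts alone, no filter, without FO 1 and GF 3, without GF 3 and GF 4, drawn down, and in the range 0 to 1 with single libraries left out. In FO versus control, 12 were lower, 19 (and 1 higher, CD14) with the FO and control libraries only, 20 without GF 3 and GF 4, and 1 (without control 2) to 15 with single libraries left out. DESeq2 called 9, 24 and 12 lower. Over single fold changes of the tested genes, 250 of the alternatives in GF versus FO kept direction and call, 45 lost the call and 3 gained it; in GF versus control these were 547, 42 and 17, and in FO versus control 516, 55 and 35. The causes were not tested, beyond fewer libraries or genes by construction.

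In GF versus FO, total counts alone moved the median of all genes to 0.13 and ended the calls of AIF1 (0.0680), FCER1G (0.0576), LYVE1 (0.0576) and MRC1 (0.0746). Deviations from the group means of same-numbered GF and FO libraries correlated at 0.073, 0.252, 0.093 and 0.121 across genes. Libraries of unlike number correlated at −0.176 to 0.133. GF 2 and GF 3 correlated best with their own number, GF 1 with FO 2 (0.133) and GF 4 with FO 3 (0.132). Whether the numbers pair the libraries was not settled, and the main tests do not pair them. With the replicate block, 8, 24 and 11 genes were lower in the 3 comparisons and 1, 0 and 0 higher. In GF versus FO the block ended the calls of FCER1G (edgeR adjusted p = 0.0535) and FGR (0.0515). TYROBP gained a call as lower in GF (0.0383). Depth limits genes with few counts: 16 of the 34 could not be tested between the grafts.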
